A study of Mus musculus with 192 samples.

Results

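A synthetic mimic of miR-23b-5p was transfected into mouse embryonic stem cells (mESCs), and the polyadenylated RNA was then sequenced. The members are the 3 mimic libraries whose labels name miR-23b-5p (batches b1, b2 and b3) and the 3 libraries of the scrambled mimic from the same batches, 6 of the 192 samples of the series. All of them come from wild-type E14, an established mESC line kept in 2i medium (a MEK and a GSK3 inhibitor with LIF) to which serum was added for the transfection. The mimics were Pre-miR precursors, double-stranded RNAs that enter the cell's own miR machinery. They were given with Lipofectamine RNAiMax for 24 h, at 100 nM in the transfection mix that was then added to the medium. The labels call the 3 batches biological replicates, and each batch held its own scrambled control and its own untreated control (none: no mimic). Cells were fixed with paraformaldehyde before the RNA was extracted. The same set of libraries held 5 other mimics (miR-433-3p, miR-152-3p, miR-467e-5p, miR-99a-5p and miR-100-5p), which serve here as a second kind of control, and a set of inhibitor libraries was made with LNA oligonucleotides against the same miRs. The libraries hold no measurement of the transfected miR itself, so the dose that reached the cells is not known, and all results come from 1 cell line.

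MiRs are short RNAs that guide Argonaute proteins to messenger RNAs. Pairing is led by the seed, bases 2 to 8 of the miR, and its matches in 3′ untranslated regions (3′ UTRs) lead to lower mRNA levels and less translation. miR-23b-5p comes from the opposite arm of the hairpin that yields miR-23b-3p, which is the better known product. Because a mimic works through base pairing, the mature sequences are shown before any value. They were taken from RefSeq (GRCm38.p6), 5′ to 3′, with the seed in capitals. The sequence of the commercial mimic duplex itself was not used.

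miR-23b-5p, chr13:63300492-63300512, plus strand: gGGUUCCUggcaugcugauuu
miR-433-3p, chr12:109591781-109591802, plus strand: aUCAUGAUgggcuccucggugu
miR-152-3p, chr11:96850439-96850459, plus strand: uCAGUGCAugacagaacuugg
miR-99a-5p, chr16:77598940-77598961, plus strand: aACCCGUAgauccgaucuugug
miR-100-5p, chr9:41531437-41531458, plus strand: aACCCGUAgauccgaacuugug

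miR-99a-5p and miR-100-5p share their seed, and neither of them shares it with miR-23b-5p. miR-467e-5p is given by name only. The match of the miR-23b-5p seed in a messenger RNA is AGGAACC, called a 7mer-m8 site. Followed by an A it is an 8mer site (AGGAACCA), GGAACCA is a 7mer-A1 site, and GGAACC alone is a 6mer site. Sites of 6 of the lower genes described below, and those of 3 genes the study itself connects with miR-23b-5p, are shown here because the results below return to them. Each line is a stretch of the 3′ UTR in the sense of the transcript (GRCm38, GENCODE M21 annotation), with the site in capitals.

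Plekhh1, 8mer, chr12:79081408-79081433, plus strand: tgatctttagcatctaAGGAACCAcc
Dazap2, 8mer, chr15:100619643-100619668, plus strand: cttttcaaatttaataAGGAACCAtg
Rnf216, 8mer, chr5:142990970-142990995, minus strand: ttggtagtaaaaatagAGGAACCAag
Snx30, 7mer-m8, chr4:59899166-59899191, plus strand: atacctccgtattgtgaAGGAACCtc
Fam168a, 8mer, chr7:100837003-100837028, plus strand: gtcacggccaaagtgaAGGAACCAca
Hspb8, 8mer, chr5:116408650-116408675, minus strand: ttggagcagctccgcaAGGAACCAag
Acad8, 8mer, chr9:26975187-26975212, minus strand: gtgcacctttaactccAGGAACCAtg
Gnb2, 8mer, chr5:137528139-137528164, minus strand: ttcagtttttccataaAGGAACCAct
Nipsnap1, 7mer-m8, chr11:4893769-4893794, plus strand: tgagacagccttgaagcAGGAACCct

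The 3 miR-23b-5p libraries held between 10153044 and 11679486 expected counts and the 3 scrambled libraries between 10295321 and 19956841, with 15335 to 19102 genes detected per library. The library of miR-100-5p in batch b3 stood apart, with 6257540 counts on 7037 genes, and was left out of the fit. The study left it out as well. The cells carried the markers of the line in every group: the summed TPM (transcripts per 1000000) of 6 embryonic stem cell markers ranged from 4024 to 4096 with miR-23b-5p, from 3940 to 4338 with the scrambled mimic and from 3978 to 4224 without a mimic. Markers of other cell types were low, with 3.53 to 9.72 TPM over 6 extraembryonic endoderm markers with miR-23b-5p against 1.66 to 4.07 with the scrambled mimic. The 5 neuroectoderm markers summed to 43.0 to 53.2 TPM with miR-23b-5p, against 51.9 to 60.2. The 3 mesoderm markers summed to 2.6 to 4.97 against 2.72 to 6.48, the 3 trophoblast markers to 0.47 to 3.56 against 0.67 to 1.39, and the 6 fibroblast markers to 12.7 to 20.3 against 10.97 to 18.1 (10.7 to 70.5 without a mimic), with Col3a1, Postn and Dcn at 0 in each of the miR-23b-5p, scrambled and untreated libraries. Many of the markers fell under the count minimum of the main comparison. Tested were all 6 embryonic stem cell markers, 1 of 6 for extraembryonic endoderm, 3 of 5 for neuroectoderm, 1 of 3 for mesoderm, 1 of 3 for trophoblast and 2 of 6 for fibroblasts. Of these tested markers, Tfcp2l1 alone passed. The part of the markers in the results was not tested.

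More genes were lower than higher with the miR-23b-5p mimic. Of 12257 genes tested, 77 were lower than with the scrambled mimic and 27 were higher at an adjusted p under 0.05 (edgeR quasi-likelihood test with batch as a block, Benjamini-Hochberg adjustment), which is 0.628% and 0.22% of the genes tested. At an adjusted p under 0.01, 24 genes were lower and 9 higher (0.196% and 0.0734%). The changes were small: the lower genes had a median log2 fold change of -0.48, a fall of 28.1%, and the higher genes a median of 0.49, a rise of 40.8%. The median over all genes was -0.0034. 4 of the lower genes and 0 of the higher genes were past a 2-fold change. All 104 called genes had the same sign in the 3 batches, which also held for 3721 of the 12257 genes tested. For 64 of the 77 lower genes every miR-23b-5p library was below every scrambled library, where 5.33% of all genes were apart in this direction. For 23 of the 27 higher genes the groups were apart in the other direction, beside 4.62% of all genes. The calls used these same libraries, so the shared signs and the separation describe the called genes and are not further support.

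These calls rest on an estimate of the spread that all 23 fitted libraries shared. With the 6 miR-23b-5p and scrambled libraries alone, edgeR called 0 genes (905 at an unadjusted p under 0.05) where DESeq2 on the 23 libraries called 256 (96 higher and 160 lower). Without the batch block edgeR called 9 genes and with the shallow miR-100-5p library kept it called 0 (113 unadjusted), and leaving out 1 library gave between 34 (without miR-23b-5p replicate 2) and 161 calls (without scrambled replicate 2), with 37 without scrambled replicate 3 and 54 without miR-23b-5p replicate 3. All 77 lower genes kept their sign under every alternative that tested them, and 16 of them were called in each of the 6 fits that left out 1 library.

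**Figure D1:**
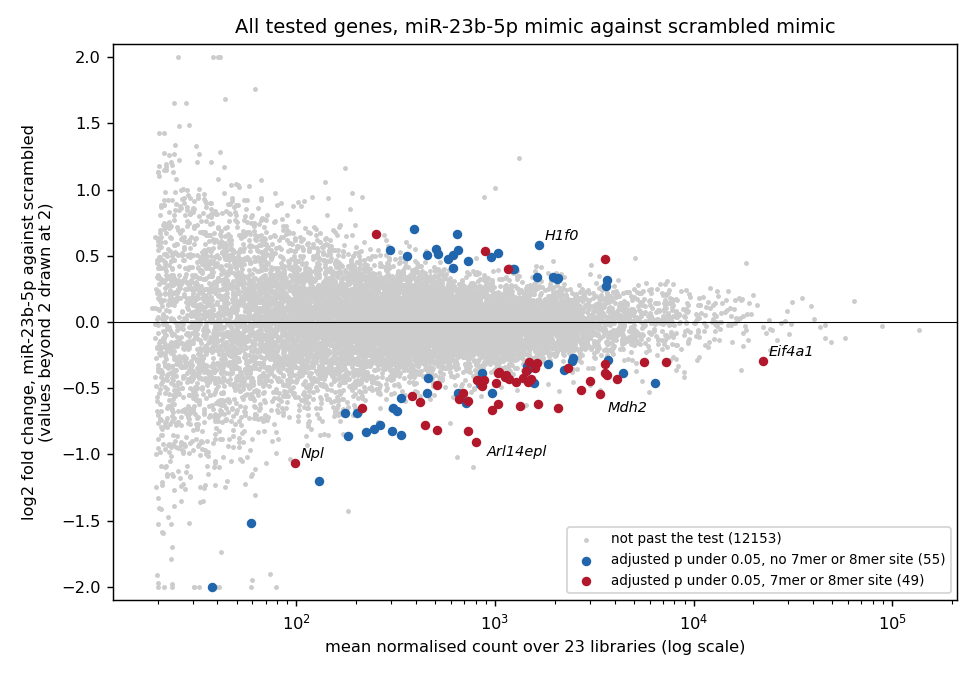
Log2 fold change of miR-23b-5p against scrambled (y axis) over mean normalized expression (x axis, log scale) for the 12257 genes tested. Colours mark 49 called genes with a 7mer or 8mer site, 55 called genes without such a site and the 12153 other genes, and values past 2 or -2 are drawn at that limit. The called genes lie mostly below 0.

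Plekhh1, a cytoskeleton-linked protein with pleckstrin homology and FERM domains, had the lowest p of all genes. Its level was 80.4, 79.9 and 85.8 counts per 1000000 (CPM) in the 3 miR-23b-5p libraries, 139, 118 and 127 in the scrambled libraries, and 122, 110.4 and 117 in the untreated ones (batches b1, b2 and b3, in this order here and below). The miR-23b-5p libraries were the lowest of the 9, with no overlap. The log2 fold change was -0.64 ± 0.076 (SE) against scrambled (adjusted p = 9.02e-05), and the 3′ UTR holds the 8mer shown above and a 7mer-A1 site.

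Arl14epl had 33.5, 39.9 and 41.2 CPM with miR-23b-5p, 73.7, 80.8 and 62.1 with the scrambled mimic and 85.5, 90.0 and 60.5 without a mimic. The 3 miR-23b-5p libraries again lay below all others, with a log2 fold change of -0.91 ± 0.11 (adjusted p = 0.000119). Snx30, a sorting nexin of endosomal membranes, had 30.1, 34.7 and 32.1 CPM with miR-23b-5p and 54.7, 60.8 and 55.1 with the scrambled mimic. Its groups did not overlap, and it was lower by -0.81 ± 0.11 on the log2 scale (adjusted p = 0.000298). Dazap2, a small proline-rich adaptor protein, had 37.3, 31.0 and 37.8 CPM with miR-23b-5p, 69.8, 48.3 and 70.6 with the scrambled mimic and 63.8, 65.1 and 57.1 without a mimic. Here the scrambled library of batch b2 was the lowest of the controls and was still above every miR-23b-5p library (log2 fold change -0.83 ± 0.12, adjusted p = 0.000587). Rnf216, an E3 ubiquitin ligase, had 85.1, 88.1 and 91.3 CPM with miR-23b-5p, 118, 125 and 120.2 with the scrambled mimic and 123, 112 and 114 without a mimic. The groups did not overlap, and the change was -0.46 ± 0.073 (adjusted p = 0.00139). These 5 genes were called in each of the 6 fits that left out a library.

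Several of the named lower genes, picked by the fixed rule and not as a group, encode regulators of transcription or chromatin. Zeb1, a zinc finger repressor best known from epithelial-mesenchymal transition, had 15.2, 19.4 and 14.9 CPM with miR-23b-5p, 25.0, 35.0 and 27.6 with the scrambled mimic and 26.3, 23.2 and 26.6 without a mimic. All 3 miR-23b-5p libraries were below the other 6 (log2 fold change -0.82 ± 0.14, adjusted p = 0.00269). Its longest 3′ UTR holds no site, and an 8mer match lies in its coding sequence. Plagl2, a zinc finger transcription factor, fell by 0.81 on the log2 scale, and was at -0.51 against none and at -0.68 with miR-433-3p. Phc3, a Polycomb subunit, fell by 0.83 but was at -0.28 against none, and at -0.51 to -0.80 with the 5 other mimics against the same scrambled libraries. Zfp568, a KRAB zinc finger protein, was at 201, 276 and 234 CPM with miR-23b-5p and 277, 317 and 372 with the scrambled mimic. The lowest scrambled library lay just above the highest miR-23b-5p library, and the change was -0.44 (adjusted p = 0.00208), beside -0.52 with miR-152-3p. Ino80, the ATPase of a nucleosome remodeller, was lower by -0.31 (adjusted p = 0.0451), with scrambled values of 134, 169 and 185 CPM that overlapped the miR-23b-5p values of 124, 128 and 139.

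The named lower genes of other functions follow, with no test of any function. Kif13b, a kinesin motor, was lower by -0.43 (adjusted p = 0.0149) and Ehd1, which acts in endocytic recycling, by -0.35 (adjusted p = 0.0356). Bloc1s6, which acts in the making of lysosome-related organelles, fell by 0.69. Dpysl3, a collapsin response mediator that binds the cytoskeleton, had 16.4, 20.1 and 14.1 CPM with miR-23b-5p and 23.6, 40.7 and 28.4 with the scrambled mimic, where batch b2 was the highest. The groups were apart and the log2 fold change was -0.85 (adjusted p = 0.0078). The kinase Wnk3, a regulator of ion cotransporters, fell by 0.78, and Garem1, an adaptor of receptor tyrosine kinase signalling, by 0.69.

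Hspb8, a small heat shock protein, had 52.5, 26.1 and 36.6 CPM with miR-23b-5p and 67.5, 51.3 and 50.5 with the scrambled mimic. The miR-23b-5p library of batch b1 lay above the 2 lower scrambled libraries, so the groups overlapped, and the change was -0.58 ± 0.13 (adjusted p = 0.0261). Fam168a, whose 3′ UTR holds an 8mer and a pair of 7mer-m8 sites, had 40.3, 52.5 and 52.3 CPM with miR-23b-5p and 65.4, 67.3 and 85.1 with the scrambled mimic, a change of -0.60 with no overlap (adjusted p = 0.00446). The untreated libraries had 48.5, 55.3 and 65.1 CPM of Fam168a, which overlapped the miR-23b-5p values. Srxn1, which repairs oxidised peroxiredoxins, was lower by -0.53 (adjusted p = 0.0342). Npl, the lyase of sialic acid breakdown, was among the least abundant, with 3.40, 2.33 and 5.53 CPM with miR-23b-5p and 9.30, 5.64 and 8.67 with the scrambled mimic. Its groups were narrowly apart in batch b2 of the controls and b3 of the mimic, and the log2 fold change was -1.06 ± 0.26 (adjusted p = 0.0451). Slc9b1, a sodium-proton exchanger family member, was lower by -0.86.

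Among the genes named by the rule, the most negative log2 fold changes belonged to 2 genes with no annotated 3′ UTR, Gm14760 (-1.52 ± 0.36, adjusted p = 0.0365) and a gene without a symbol, ENSMUSG00000097769 (-1.20 ± 0.28, adjusted p = 0.0376). Gm21887, chosen after its values were seen, was at 0, 0 and 0.518 CPM with miR-23b-5p and at 3.59, 6.24 and 3.32 with the scrambled mimic, too few reads for a reliable fold. Ipo11, an importin, Dcp2, the mRNA decapping enzyme, Celf1, an RNA-binding protein, and Mdh2, the mitochondrial malate dehydrogenase, were also singled out after their values were seen, for their low p. Their log2 fold changes were -0.62 (adjusted p = 0.000544) for Ipo11, -0.65 (adjusted p = 0.000544) for Dcp2, -0.40 (adjusted p = 0.000544) for Celf1 and -0.54 (adjusted p = 0.00139) for Mdh2. Each of these 4 has a 7mer site in its 3′ UTR.

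**Figure D2:**
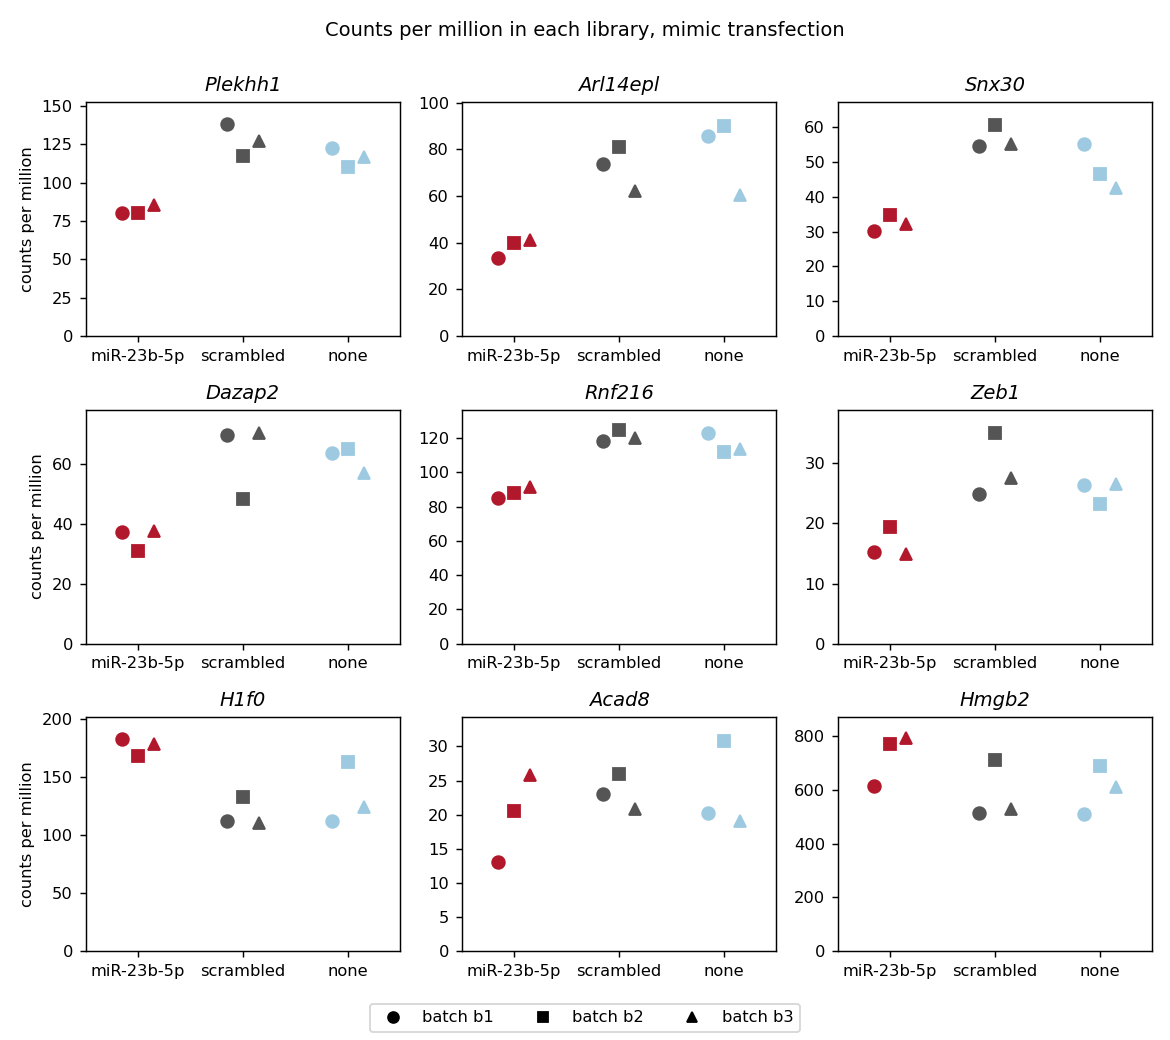
Counts per 1000000 (y axes, from 0) of 9 genes in the miR-23b-5p, scrambled and untreated (none) libraries, with a point per library for batches b1 to b3. Plekhh1, Arl14epl, Snx30, Dazap2, Rnf216 and Zeb1 are lower with miR-23b-5p in all 3 batches, H1f0 is higher, and the points of Acad8 and Hmgb2 overlap between the groups.

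The genes that were higher with miR-23b-5p formed a smaller set. H1f0, a linker histone, had 183, 168 and 179 CPM with miR-23b-5p, 112, 133 and 110.4 with the scrambled mimic and 112, 163 and 124 without a mimic. The miR-23b-5p values were the highest of the 9, and the log2 fold change was 0.58 ± 0.099 against scrambled (adjusted p = 0.00269). Fam98b, a subunit of the tRNA ligase complex, had 33.8, 40.6 and 42.3 CPM with miR-23b-5p and 21.1, 24.6 and 26.1 with the scrambled mimic (0.70, adjusted p = 0.00824). The untreated libraries had 28.9, 42.3 and 37.5 CPM of Fam98b, close to those with miR-23b-5p. B230219D22Rik was higher by 0.54 (adjusted p = 0.00287), with 71.2, 63.8 and 58.6 CPM against 48.0, 40.0 and 44.6, and its untreated libraries had 60.6, 62.2 and 58.0. Other named higher genes acted in nuclear RNA and DNA metabolism: the spliceosomal Sm protein Snrpd1 (0.52), the clamp loader subunit Rfc4 (0.51) and Utp11 of ribosomal RNA processing (0.48). Pank1, a pantothenate kinase of coenzyme A synthesis, was higher by 0.66, and the remaining ones were Gm4739 (0.67), Ankmy2 (0.55), Rbm44 (0.54), Scml2 (0.51), Atf5 (0.51), Sfn (0.50), Cdk2ap1 (0.49) and the retromer-associated Snx6 (0.46). The study found B230219D22Rik, Fam98b, Rfc4, Ankmy2 and Snx6 to differ between scrambled and untreated cells, and left them out of its other comparisons. Over all alternatives, which include untreated cells as the reference, their log2 fold changes fell as low as 0.09, 0.11, 0.03, 0.14 and 0.05, in this order. In the fits against scrambled that left out 1 library, the lowest values were 0.47, 0.68, 0.37, 0.46 and 0.41. Each higher gene named in this paragraph was also above 0 with all 5 other mimics against the same scrambled libraries.

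The untreated libraries served as another reference, and the lower genes stood further from it than the higher genes. Against none, 19 genes were lower with miR-23b-5p and 1 was higher (0.155% and 0.00816% of the genes tested). The 77 genes lower against scrambled had a median of -0.37 against none, and 16 of them were called there. The 27 higher genes had a median of 0.18, and 0 were called by edgeR (12 at an unadjusted p under 0.05, and 2 by DESeq2). Both comparisons use the same miR-23b-5p libraries. The scrambled libraries themselves differed from none in 3 genes at an adjusted p under 0.10, all lower with the scrambled mimic (0.0245% of the genes tested, against 0.0% higher, while 372 genes were higher and 331 lower at an unadjusted p under 0.05, and DESeq2 called 1 higher and 12 lower at an adjusted p under 0.05). Serp1 of the endoplasmic reticulum and the small GTPase Rap1b were among those 3 and also among the 27 genes called higher against scrambled (both are named here after their values were seen). Serp1 had 76.2, 83.9 and 86.3 CPM with miR-23b-5p, 52.3, 56.5 and 61.2 with the scrambled mimic and 80.0, 95.1 and 75.2 without a mimic. Its log2 fold change was 0.53 against scrambled and -0.02 against none. Rap1b likewise changed sign, from 0.40 to -0.02. Over all 27 higher genes, the scrambled libraries were below the untreated ones by a median of -0.27 on the log2 scale. Over the 77 lower genes the scrambled libraries were above the untreated ones, by a median of 0.13. The median over all genes tested was 0.0028.

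The seed of miR-23b-5p was used to describe the called genes, with no test. Of 11649 tested genes with an annotated 3′ UTR, 1886 (16.2%) hold a 7mer or 8mer site in the longest of them. Among the lower genes 45 of 74 did (60.8%), and among the higher genes 4 of 26 (15.4%). By the best site of the gene, 11 of the lower genes had an 8mer, 18 a 7mer-m8, 16 a 7mer-A1, 5 a 6mer and 24 none. The share of genes called lower was 2.29% with an 8mer, 2.30% with a 7mer-m8, 2.57% with a 7mer-A1, 0.463% with a 6mer and 0.276% without any site. For 7mer and 8mer sites together it was 2.39%. With the other mimics the same site genes were called lower at 0.318% (miR-100-5p) to 2.12% (miR-467e-5p). Genes without any site were at 0.253% and 1.38% with these 2 mimics. With the miR-23b-5p inhibitor the shares were 2.41% with a 7mer or 8mer site and 1.24% without any. Among the 24 lower genes with no site in the UTR, 11 (45.8%) had a 7mer or 8mer match in the coding sequence, as had 21.9% of all tested genes without a UTR site.

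Most genes with a site did not pass the test, and the shift over all of them was small. The median log2 fold change was -0.08 for genes with an 8mer, -0.09 for a 7mer-m8, -0.05 for a 7mer-A1, -0.05 for a 6mer and 0.02 for genes without a site. The genes with a 7mer or 8mer lay below those without a site by -0.09 in the fit, and by -0.08, -0.06 and -0.12 in batches b1, b2 and b3. Against none the difference was -0.06 and against the mean of the 5 other mimics -0.05, while scrambled against none gave 0.03 with the opposite sign. The same genes differed by -0.01 to -0.04 in the other mimics against scrambled, and all of these share the scrambled libraries. Genes with 1 site had a median of -0.07, those with 2 sites -0.12 and those with 3 or more -0.16, while their median UTR lengths were 2119, 3318.5 and 4666.5 bases. Of these genes, 36 of 1590, 7 of 248 and 2 of 48 were called lower.

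**Figure D3:**
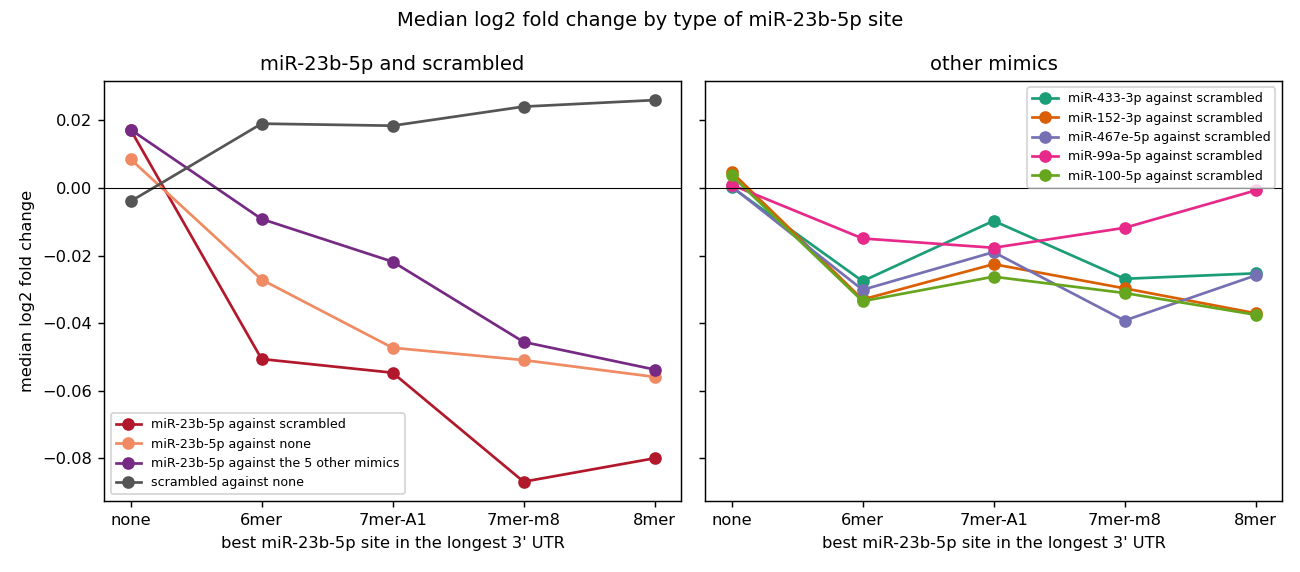
Median log2 fold change (y axis) of tested genes by the best miR-23b-5p seed site in their longest 3′ UTR (x axis). The left panel plots miR-23b-5p against scrambled, none and the 5 other mimics, with scrambled against none, and the right panel the other mimics against scrambled. In the main comparison the medians run from -0.08 for an 8mer to 0.02 for no site.

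Site-bearing UTRs are longer (median 2328 bases against 924 without a site), and the length of the UTR itself moved with the result. In batch b3, genes without a site had a median batch difference of 0.14 when their UTR was short (up to 706 bases) and of -0.13 when it was long (1837 bases and more), while in batches b1 and b2 these medians stayed between -0.0040 and 0.024. Within each length class the genes with a site were still the lower ones. The difference of the medians was -0.09 for short, -0.05 for middle and -0.06 for long UTRs in the fit. In batch b3 it was -0.06, -0.02 and -0.04 in these classes, smaller than the -0.12 over all lengths. Among genes with a site 3 of 177 short, 14 of 543 middle and 28 of 1166 long ones were called lower (1.69%, 2.58% and 2.40%). Without a site these were 6 of 3551, 7 of 2962 and 11 of 2170 (0.169%, 0.236% and 0.507%).

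**Figure D4:**
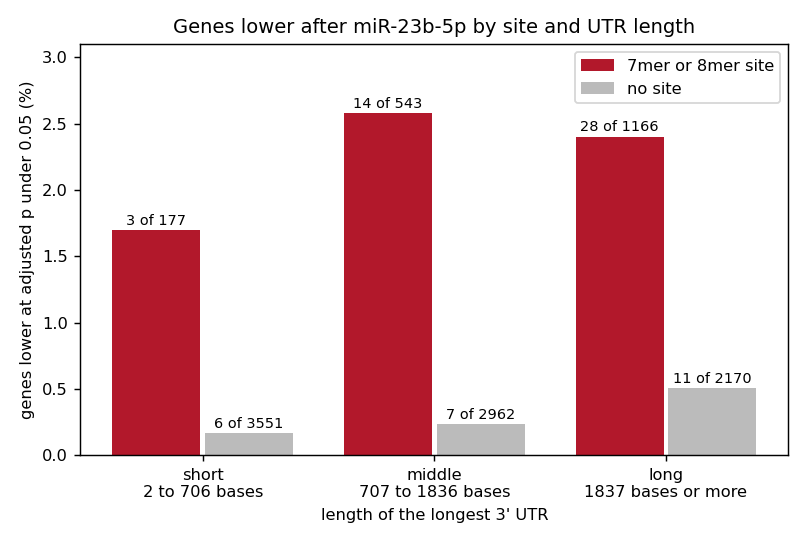
Share of genes called lower with miR-23b-5p against scrambled (y axis, percent, from 0) in 3 classes of 3′ UTR length, with a bar for genes with a 7mer or 8mer site and a bar for genes without any site. Counts are printed at the bars. In each class the share is higher with a site, from 1.69% to 2.58% against 0.169% to 0.507%.

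Words of 7 bases were also ranked without regard to the seed, by the mean log2 fold change of genes whose 3′ UTR holds the word minus that of genes without it. AGGAACC, present in 1263 genes, stood at rank 38 of 15690 words (difference -0.10), and at rank 1 of the 7884 words found in at least 1000 genes, a limit added after seeing the data. Against the 5 other mimics it was at rank 14 and against none at rank 66 of all words. In batch b1 it stood at rank 10, in b2 at 251 and in b3 at 6628, so the rank did not hold in the third batch. In scrambled against none the word stood at rank 13388, and in the other mimics between 2034 and 10739. The 7mer-m8 words of the other mimics stood higher in their own comparisons with scrambled. They were at rank 1 for miR-433-3p, 3 for miR-152-3p, and 2 for both miR-99a-5p and miR-100-5p. Among words of 6 bases GGAACC stood at rank 2 of 4095, and among words of 8 bases AGGAACCA at rank 2893 of 44027.

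The 5 other mimics were compared with the scrambled mimic in the same way. Against the same scrambled libraries, 128 genes were lower and 74 higher with miR-433-3p (1.04% and 0.604% of the genes tested), and 60 and 29 with miR-152-3p (0.49% and 0.237%). With miR-467e-5p 180 were lower and 33 higher (1.47% and 0.269%), with miR-99a-5p 37 and 34 (0.302% and 0.277%), and with miR-100-5p 31 and 28 (0.253% and 0.228%). These comparisons share their 3 scrambled libraries with the miR-23b-5p comparison. The 77 genes lower with miR-23b-5p had medians of -0.06 to -0.19 in the other mimics. Of these, 11, 8, 11, 0 and 1 were called lower with miR-433-3p, miR-152-3p, miR-467e-5p, miR-99a-5p and miR-100-5p. The 27 higher genes had medians of 0.23 to 0.38 in the other mimics. Of these, 17, 13, 8, 6 and 6 were called higher with the same mimics in the same order. Sites for each mimic's own seed were found in 68.5% of the lower genes for miR-433-3p (17.0% of all), in 87.7% for miR-152-3p (22.6% of all), in 61.1% for miR-99a-5p and in 60.0% for miR-100-5p (2.49% of all for their common seed). Genes with an 8mer for the mimic's own seed had medians of -0.18, -0.13, -0.23 and -0.31 in this order, beside -0.08 with miR-23b-5p. The common seed had 30 such genes.

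When miR-23b-5p was compared with the mean of the 5 other mimics, 63 genes were lower and 11 higher (0.514% and 0.0897% of the genes tested), and this comparison does not use the scrambled libraries. It shares the miR-23b-5p libraries with the main comparison. Of the 77 genes lower against scrambled, 36 were called lower here, with a median of -0.34. Of the 27 higher genes, 0 were called by edgeR (10 at an unadjusted p under 0.05, and 1 by DESeq2), with a median of 0.11. The largest negative differences by the fixed rule were those of Npl (-1.38, adjusted p = 0.00122), Dazap2 (-1.04, adjusted p = 8.46e-07), Arl14epl (-0.99, adjusted p = 8.46e-07), Dpysl3 (-0.96, adjusted p = 0.000281) and Parm1 (-0.81, adjusted p = 0.00372). Dazap2 ranged from 46.5 to 89.9 CPM over the libraries of the other mimics, with a median of 74.3, all above the highest miR-23b-5p library at 37.8. Npl ranged from 7.25 to 12.0 CPM there, above its highest value of 5.53 with miR-23b-5p. The largest positive differences from the other mimics were those of Esrp1, an epithelial splicing regulator (0.87, adjusted p = 0.00336), the polarity protein Crb3 (0.86, adjusted p = 0.031), Ccdc130 (0.65, adjusted p = 0.0185), the adaptor Grb7 (0.43, adjusted p = 0.0324) and Atpaf1, an assembly factor of the mitochondrial ATP synthase (0.42, adjusted p = 0.00726). For Atpaf1 the difference from scrambled was 0.21 (adjusted p = 0.344), beside -0.62 with miR-99a-5p (adjusted p = 0.00253) and -0.64 with miR-100-5p (adjusted p = 0.00976). Crb3, Ccdc130 and Grb7 also did not pass against scrambled, at 0.62 (adjusted p = 0.259), 0.52 (adjusted p = 0.178) and 0.27 (adjusted p = 0.315), nor did Parm1, at -0.54 (adjusted p = 0.153). Esrp1 had 12.4, 17.3 and 22.98 CPM with miR-23b-5p against 8.03, 11.2 and 12.6 with the scrambled mimic, which overlapped (0.72 against scrambled, adjusted p = 0.0975). Of the 63 lower genes, 39 had a 7mer or 8mer site for miR-23b-5p, beside 16.2% of all tested genes with a 3′ UTR.

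**Figure D5:**
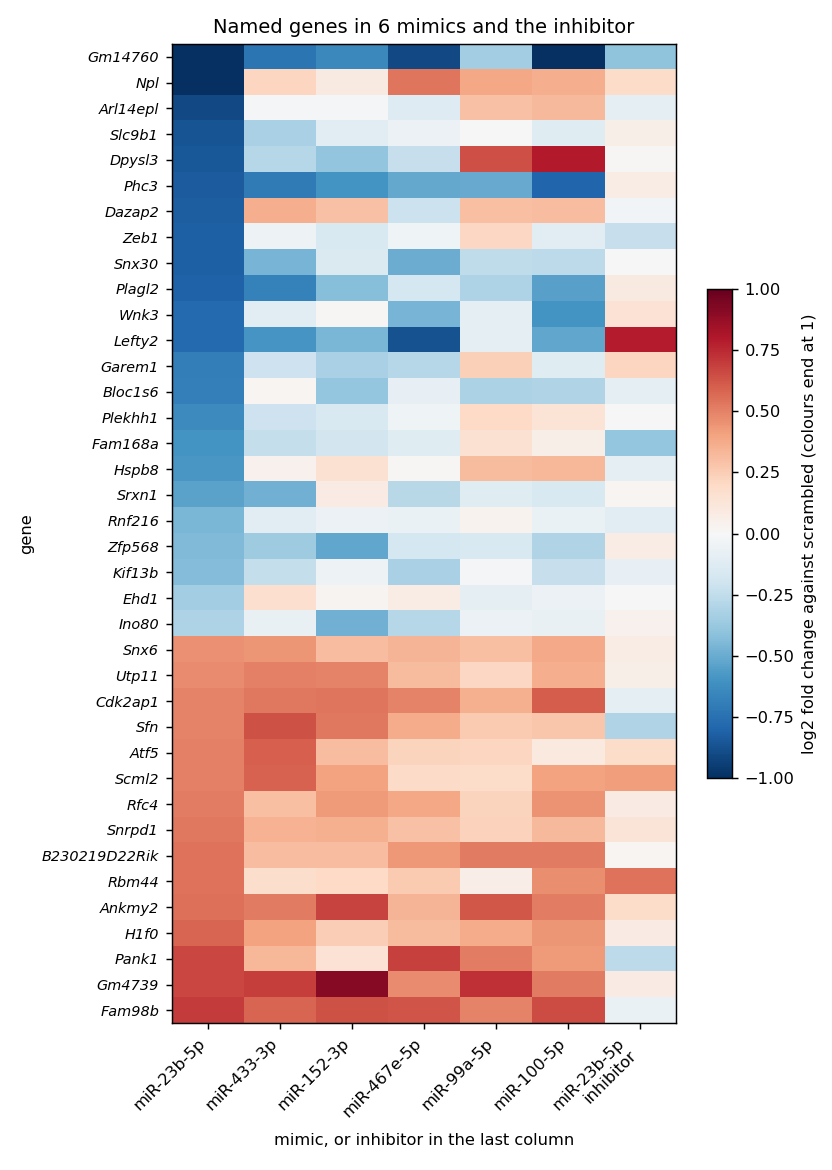
Log2 fold changes (colour scale) of 38 genes named for the miR-23b-5p comparison, in rows, for the 6 mimics against the scrambled mimic and the miR-23b-5p inhibitor against its scrambled inhibitor, in columns. Lefty2, Zfp568 and Ino80 are lower in another mimic than with miR-23b-5p, and the 20 other lower genes are lowest with miR-23b-5p. The genes were chosen by their change or p in the miR-23b-5p column, which favours low values there. The 15 higher genes are above 0 for all 6 mimics, which share the scrambled libraries.

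The study connects Acad8, Gnb2, Nipsnap1 and Hmgb2 with miR-23b-5p, and none of these 4 passed the edgeR test at the mRNA level (2 of them at an unadjusted p under 0.05). DESeq2 called 1 of them, Hmgb2, higher. Acad8, isobutyryl-CoA dehydrogenase of valine breakdown, had 13.03, 20.5 and 25.7 CPM with miR-23b-5p, 22.99, 25.9 and 20.8 with the scrambled mimic and 20.3, 30.8 and 19.0 without a mimic. It was lower than scrambled in batches b1 and b2 and higher in b3, a log2 fold change of -0.22 ± 0.20 (adjusted p = 0.654), and 0.08 against the other mimics (adjusted p = 0.903). The value turned to 0.03 without the miR-23b-5p library of batch b1. Gnb2, a beta subunit of heterotrimeric G proteins, had 154, 139 and 171 CPM against 212, 122 and 162 with the scrambled mimic, with overlap (-0.08 ± 0.10, adjusted p = 0.777), and turned to 0.02 without miR-23b-5p replicate 1 and to 0.06 without scrambled replicate 1. Both hold the 8mer shown above.

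Nipsnap1, a mitochondrial protein, had 115, 100.0 and 106 CPM with miR-23b-5p, 141, 127 and 122 with the scrambled mimic and 140, 97.0 and 116 without a mimic. The miR-23b-5p values were below the scrambled ones and overlapped the untreated ones, and the change of -0.28 ± 0.084 missed the threshold (adjusted p = 0.124). Hmgb2, a chromatin-bound high mobility group protein, had 613, 770.2 and 791 CPM with miR-23b-5p, 515, 709 and 528 with the scrambled mimic and 509, 689 and 610.3 without a mimic. It was above the scrambled library of its own batch in each batch (0.31 ± 0.082, adjusted p = 0.0703), and 0.10 above the other mimics (adjusted p = 0.561). Over the alternatives of the fit its adjusted p ranged from 0.00212 to 1, with 3 of 15 under the threshold. Hmgb2 has no seed site in its UTR.

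Gene lists of pathways active in these cells were read by their counts. Among 3 core pluripotency factors 0 passed with edgeR, with DESeq2 or at an unadjusted p under 0.05, with Nanog at -0.11, Pou5f1 at 0.06 and Sox2 at 0.02 on the log2 scale. Of 16 naive pluripotency genes 1 was lower, beside 0.628% of all genes tested. That gene was Tfcp2l1, a transcription factor of the ground state. It had 361, 382 and 276 CPM with miR-23b-5p and 454, 427 and 437 with the scrambled mimic, with no overlap (-0.38, adjusted p = 0.00906). Its untreated value of 355 CPM in batch b3 lay within the miR-23b-5p values. In the TGF-beta, Nodal and BMP list, 1 of 24 genes was lower, beside 0.628% of all genes tested, and 0 higher, with a median of -0.08 beside -0.0034 over all genes. That gene, Lefty2, an inhibitor of Nodal, had 26.0, 10.2 and 19.3 CPM with miR-23b-5p and 48.9, 15.6 and 32.0 with the scrambled mimic. Each batch was lower than its own control, with overlap between the groups (-0.78 ± 0.17, adjusted p = 0.0261). Against the same scrambled libraries Lefty2 was at -0.87 with miR-467e-5p (adjusted p = 0.0047), -0.59 with miR-433-3p (adjusted p = 0.0815) and -0.52 with miR-100-5p (adjusted p = 0.315). Its relative Lefty1 was at -0.60 (adjusted p = 0.236) and the BMP target Id3 at -0.63 (adjusted p = 0.167).

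In the integrated stress response list 2 of 20 genes were higher and 0 lower, beside 0.22% higher of all genes tested, and DESeq2 called 3 higher. The list's median was 0.09 against scrambled and 0.02 against none, with the scrambled libraries below none by a median of -0.14. Phgdh, which opens serine synthesis, had 131, 109 and 118 CPM with miR-23b-5p and 113, 78.02 and 83.04 with the scrambled mimic, so batch b1 of the controls overlapped (0.40, adjusted p = 0.00906). The stress transcription factor Atf5 had 58.0, 63.7 and 67.7 CPM against 44.6, 43.8 and 44.7 (0.51, adjusted p = 0.0236). Trib3, a target of the same response, was at 0.58 (adjusted p = 0.0604), and Psat1, also of serine synthesis, at 0.26 (adjusted p = 0.127) against scrambled but -0.01 against none. In the cell cycle list 1 of 32 genes was lower, beside 0.628% of all genes tested. It was Mcm6, a helicase subunit of replication (-0.30, adjusted p = 0.0261).

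The 44 cytosolic ribosomal protein genes had 0 calls with edgeR and with DESeq2 (9 at an unadjusted p under 0.05, all higher), and 39 of them were above 0 with a median of 0.18. Their median was -0.05 in batch b1, 0.03 in b2 and 0.53 in b3, so the shift was largest in the batch in which genes with short UTRs were also higher. Its part in the result was not tested. The remaining 22 lists had 274 genes tested and 0 calls against scrambled with edgeR. Of these genes 50 were at an unadjusted p under 0.05, and 6 were called by DESeq2. The lists were targets of p53, interferon and double-stranded RNA response, the miR pathway itself, Wnt and FGF/ERK signalling, Polycomb and DNA methylation, and glycolysis. The others were oxidative phosphorylation, mitochondrially encoded genes, cholesterol and branched-chain amino acid metabolism, high mobility group families, primed and lineage markers, genes of the 2-cell-like state, and the genes the study connects with miR-23b-5p or with other miRs. Not every listed gene was tested, as with 16 of 35 in the interferon and double-stranded RNA list. In the lineage lists these were 8 of 16 for extraembryonic endoderm, 7 of 12 for neuroectoderm, 2 of 9 for mesoderm, 5 of 9 for trophoblast and 4 of 10 for fibroblasts. Against the mean of the other mimics 5 list members passed, where 0.514% of all genes tested were lower and 0.0897% higher. The Polycomb methyltransferase Ezh2 (-0.24, adjusted p = 0.0388), the G1 cyclin Ccnd1 (-0.34, adjusted p = 0.0117), Mcm6 (-0.22, adjusted p = 0.0436) and the growth factor Fgf4 (-0.27, adjusted p = 0.00817) were lower than in the other mimics, and Acadm of fatty acid oxidation was higher (0.27, adjusted p = 0.0342). Of these, Mcm6 alone passed against scrambled. Fgf4 was at 0.02 against scrambled (adjusted p = 0.927), while the other mimics were above scrambled, with 0.37 for miR-152-3p (adjusted p = 0.00324), 0.32 for miR-99a-5p (adjusted p = 0.0105) and 0.37 for miR-100-5p (adjusted p = 0.0101). Acadm was at 0.12 against scrambled (adjusted p = 0.532), beside -0.55 with miR-467e-5p (adjusted p = 0.000184). Ezh2 was at -0.19 (adjusted p = 0.197) and Ccnd1 at -0.19 (adjusted p = 0.289) against scrambled.

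The inhibitor of miR-23b-5p was applied for 48 h at a higher reagent dose, so its values are set beside those of the mimic and not compared. Against the scrambled inhibitor, 180 genes were lower and 81 higher of 13029 tested (1.38% and 0.622%). The 77 genes lower with the mimic had a median of -0.03 with the inhibitor, and 0 of them were called higher and 2 lower by edgeR (2 higher and 8 lower at an unadjusted p under 0.05). The 27 genes higher with the mimic had a median of 0.03, with 2 called higher and 0 lower (4 and 2 unadjusted). Plekhh1 was at -0.0039 (adjusted p = 0.988), Dazap2 at -0.02 (adjusted p = 0.961) and Snx30 at -0.0025 (adjusted p = 0.994). Fam168a was lower with the inhibitor as with the mimic (-0.39, adjusted p = 0.00578).

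The cells held less miR-23b-5p of their own than miR-23b-3p. In the small RNA libraries of the differentiation time course it stood at 46.1 ± 16.0 reads per 1000000 miR reads at 0 h (SD, n = 4 runs), against 1699 ± 292 for miR-23b-3p. The miRs of the other mimics had means of 2307 (miR-433-3p), 1477 (miR-152-3p), 369 (miR-467e-5p), 7.39 (miR-99a-5p) and 9.94 (miR-100-5p) at 0 h. Among the miRs detected at 0 h, miR-23b-5p ranked 316 of 955, 370 of 1092, 365 of 1133 and 359 of 1267. During retinoic acid treatment it was at 33.4 ± 10.5 after 6 h, 30.4 ± 14.7 after 12 h and 19.8 ± 6.96 after 24 h. It was at 9.56 ± 3.08 after 36 h, 7.23 ± 3.13 after 48 h, 4.01 ± 2.70 after 72 h and 4.21 ± 2.84 after 96 h. The highest value at 96 h was below the lowest at 0 h. These libraries come from other cultures than the transfected ones.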

How the data were processed

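E14 mESC libraries of the first mimic set (3 batches of 6 mimics, scrambled and none) were analysed from the expected counts and TPM (transcripts per 1000000) that the authors made with RSEM 1.3.1 and STAR 2.6.1a after Trimmomatic 0.38, on mm10 (GRCm38) per the labels. The deposited tables hold 54146 gene identifiers, of which 54079 have a symbol, and 3.08% of the expected counts are not whole (tolerance 0.005). Counts of miR reads in the small RNA libraries, as deposited, were divided by the library's total miR reads.

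Expected counts were rounded and tested with edgeR 4.0.16 (R 4.3.3): TMM normalization, quasi-likelihood fit, batch as block, two-sided, Benjamini-Hochberg adjustment over 12257 genes with a mean count above 20. All 23 libraries entered the fit (8109113 to 19956841 counts, 13 residual degrees of freedom, common biological coefficient of variation 0.132). Library miR-100-5p b3 was left out for low complexity, as in the study. CPM values are TMM-normalized. SE is the absolute log2 fold change divided by the square root of F. The fit was tested on simulated data. DESeq2 1.42.0, another filter, normalization, reference, block and the omission of each library were the alternatives.

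Each batch had its own controls per the labels, which pairs the libraries. Deviations from the group means correlated between miR-23b-5p and scrambled at 0.439, 0.262 and 0.0155 in b1, b2 and b3, with a median of 0.310 over all same-batch pairs and -0.131 over others. Replicates of a group differed by over 10 times counting noise. P-values measure the spread between these cultures.

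Seed sites were searched as exact words on the transcript strand in the longest 3′ UTR per gene (GENCODE M21, GRCm38). A 7mer or 8mer class takes the best site, and 8mers contain both 7mers. The mature miR sequences are from RefSeq.

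The members, gene lists and marker lists were chosen with earlier results of these data known. Named were the 15 most changed genes per direction with an adjusted p under 0.05, a mean normalized count of at least 50, the same sign in 3 batches and an adjusted p of at least 0.10 in scrambled against none. Also named were the 10 such genes of lowest p with an 8mer, 4 genes the study connects with miR-23b-5p, up to 4 members per list, the genes the study connects with other miRs, and the 5 most changed per direction against the other mimics. The values of 1 gene are not reported here.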

Additional observations from a re-analysis of the deposited data

Results flagged for a closer look

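In the small RNA libraries, miR-23b-5p in run 7 at 72 h was at 0.0 reads per 1000000 miR reads, far from the other 3 runs of that time. That library held 1046533 miR reads and 0 reads of miR-23b-5p, which allows a level of up to 2.87 reads per 1000000 (counting error only). Of 8 groups of 4 runs looked at in this way 1 stood out, and chance flags about 1 in 20 groups. The mimic libraries, with 3 samples per group, were not examined for single outlying samples.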

How the results depend on the processing

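The 104 calls of miR-23b-5p against scrambled became 9 without the replicate block, and 0 with edgeR on the 6 libraries alone (905 at an unadjusted p under 0.05) or with miR-100-5p b3 kept (113). They became 256 with DESeq2 (96 higher, 160 lower), 318 with no filter, 20 against none (1 higher, 19 lower), 33 at an adjusted p under 0.01, and 34 to 161 without 1 library. Against the 5 other mimics, the 74 calls became 16 without the block, 0 with miR-100-5p b3 kept (edgeR, 129 unadjusted), 163 with DESeq2, 171 with no filter, and 23 to 80 without 1 library. Scrambled against none, with 3 calls, gave 0 without the block (edgeR, 292 unadjusted), 0 with miR-100-5p b3 kept (31), 0 with both mimic sets (733), 14 with DESeq2, 59 with no filter, 5 with a mean count above 50 and 0 to 2 without 1 library. The 261 inhibitor calls became 55 without the block and 70 to 270 without 1 library. The block changed these counts by over 1.5 times in each of the 4 comparisons. The difference between genes with and without a site stayed negative, at -0.0589 against none.

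Against none the sign turned for Serp1 (-0.0206), Rap1b (-0.0185) and Psat1 (-0.0066). Without 1 library, Acad8 ranged from -0.54 to 0.0343, Pou5f1 from -0.0241 to 0.10, Gnb2 from -0.21 to 0.0603 and Sox2 from -0.0640 to 0.0788. Of 50 named called genes, 48 kept their sign under each alternative and 15 were called in all 6 fits without 1 library. Low counts limit Npl and Gm21887. The cause of these changes was not tested, beyond the smaller number of libraries.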
